A study of Rattus norvegicus with 12 samples.

Results

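The 6 genes described here encode the phosphate transporters of the cell surface: the sodium-phosphate cotransporters Slc34a1, Slc34a2 and Slc34a3, the sodium-phosphate cotransporters Slc20a1 and Slc20a2, and the phosphate exporter Xpr1. They were chosen by symbol and not by a threshold on measured values, although earlier results of these data were known. They make up 6 of the 27723 gene symbols found in the expression tables. Each of the 6 symbols had 1 entry in each table, and all 6 entries passed the filter on low values in both tables. RNA was sequenced from kidneys of 12 male wild-type SD (Sprague-Dawley) rats in 4 groups of 3. In the adenine model, rats given adenine by gavage for 3 weeks (adenine group) were compared with rats given saline (control group). Adenine is a purine whose oxidation product crystallises in the tubules. In the UUO model, kidneys whose left ureter had been ligated for 2 weeks (unilateral ureteral obstruction, UUO group) were compared with kidneys of rats that had the same surgery without ligation (sham group). Which kidney of the sham rats was taken is not given in the sources used here. The rats were 8 weeks old when purchased and were acclimatised for 7 days, and each sample came from a different rat. Each model is a single time point of whole-kidney RNA, in which fewer cells of a type and less RNA per cell cannot be told apart.

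Most filtered phosphate is taken back by the proximal tubule, and the cotransporters of the brush border set how much is lost in urine. Slc34a1 (NaPi-IIa) and Slc34a3 (NaPi-IIc) are the renal cotransporters of that membrane, where parathyroid hormone and FGF23 with its co-receptor klotho remove them, whereas Slc34a2 (NaPi-IIb) is best known from small intestine and lung. Slc20a1 (PiT-1) and Slc20a2 (PiT-2) are found in most cells, and Xpr1 is the known phosphate exporter of mammalian cells.

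The changes turned on Slc34a1 and Slc34a2, so the 250 bases upstream of their annotated starts (RefSeq, GRCr8) are shown, each on the minus strand of its chromosome and written 5′ to 3′ along the gene. Of the 6 members, 4 could be matched to a promoter sequence. Capitals mark TATAAA and the HNF1 half-site GTTAAT (or its reverse complement) in Slc34a1, and the overlapping TATATA repeats in Slc34a2.
Slc34a1, chr17:9238984-9239233: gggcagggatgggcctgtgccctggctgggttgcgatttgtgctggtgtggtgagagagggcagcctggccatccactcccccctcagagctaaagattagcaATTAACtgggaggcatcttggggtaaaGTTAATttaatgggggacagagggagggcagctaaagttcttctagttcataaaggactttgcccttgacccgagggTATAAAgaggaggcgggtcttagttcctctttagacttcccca
Slc34a2, chr14:62143073-62143322: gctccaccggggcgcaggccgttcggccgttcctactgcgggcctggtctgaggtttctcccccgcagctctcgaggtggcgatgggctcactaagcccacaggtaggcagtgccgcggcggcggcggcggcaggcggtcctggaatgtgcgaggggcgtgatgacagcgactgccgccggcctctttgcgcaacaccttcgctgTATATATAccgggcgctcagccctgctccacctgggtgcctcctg
In Slc34a1, TATAAA lay 43 to 38 bases before the start, and GTTAAT lay 120 to 115 bases before it on the gene's strand and 147 to 142 bases before it on the other. In Slc34a2, TATATA lay 45 to 40 and 43 to 38 bases before the start, the matches overlapping each other. Both strands were searched, and among 33469 rat promoters of this length TATAAA was found in 12.9%, TATATA in 5.45% and GTTAAT in 6.45%. HNF1 is a transcription factor family of the proximal tubule and other epithelia. The regions also differed in composition, with 53.2% G and C and 3 CG pairs in Slc34a1 against 68.8% and 25 in Slc34a2. Across all promoters the median was 51.2% and 5 CG pairs. The upstream region of Xpr1 held 70% G and C and 5 copies of GGGCGG, a GC box found in 30.5% of promoters, and that of Slc34a3 held none of the elements searched, which also included CCAAT (34.0% of promoters), the HNF4 site CAAAGTCCA (0.338%) and the AP-1 site TGANTCA (6.34%). These letters were chosen after the sequences had been seen, and a match is a description of the sequence.

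Expression was measured as FPKM, fragments scaled to transcript length and to the mapped fragments of the sample, so levels of different genes could be set side by side within a sample. Each model had its own table, and changes are given within a table as log2 fold changes of FPKM + 0.1, disease group minus its control group, with the limma adjusted p over all entries tested. DEGs were entries whose adjusted p was below 0.05 and whose change was 2 or more on the log2 scale, in either direction. The groups differed as a whole as well. FPKM summed to 564972 to 582725 in the control group, 468389 to 487770 in the adenine group, 619664 to 630244 in the sham group and 528811 to 539011 in the UUO group. Over all tested genes the median log2 fold change came to 0.30 (adenine) and 0.62 (UUO), and member changes are to be read beside these medians. How many reads lie behind a value is not known from FPKM. In every control and sham kidney 10 proximal tubule marker genes summed to at least 3506 FPKM. Slc3a1 was the largest part of this sum, with means of 2017 FPKM in control and 2075 FPKM in sham kidneys. Single markers could be low, as Slc5a2 was at 0.232 FPKM in the second control rat. The mean log2 level of the 10 markers was 7.28, 5.97 and 6.49 in the control rats.

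In the adenine model, 1 of the 6 members was an upregulated DEG (Slc34a2) and 1 a downregulated DEG (Slc34a1), where 10.7% of all tested genes were upregulated and 5.03% downregulated DEGs. By the adjusted p alone, 2 members rose (Slc34a2 and Xpr1) and 1 fell (Slc34a1), where 39.6% of all tested genes rose and 19.9% fell. After obstruction, 1 member was an upregulated DEG (Slc34a2) and 2 were downregulated DEGs (Slc34a1 and Slc34a3), where the shares of all tested genes were 13.2% and 4.21%. By the adjusted p alone, 2 members rose (Slc34a2 and Slc20a1) and 2 fell, where 56.1% of all tested genes rose and 14.4% fell. The groups did not overlap for 3 members in each model, beside 68% of the genes tested in the adenine table and 75.7% of those tested in the UUO table.

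**Figure D1:**
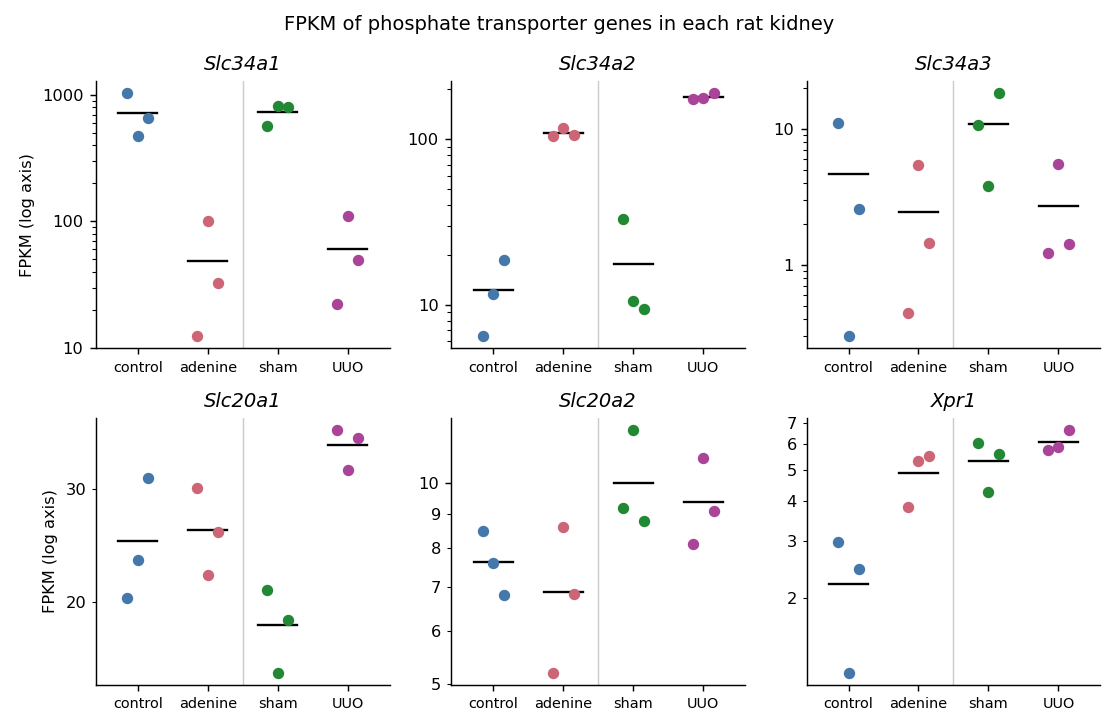
FPKM of each member on a log axis, with a point for each rat and a bar at the mean of the 3 rats; the grey line divides the 2 tables, across which levels are not compared. Slc34a1 lay between 478 and 1034 in control kidneys and between 12.4 and 100.5 in adenine kidneys, and Slc34a2 moved the other way in both models.

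Slc34a1, the main phosphate importer of the brush border, was among the most abundant transcripts of the kidneys without disease and was downregulated in both models. Its FPKM was 1034, 478 and 659 in the control rats and 12.4, 100.5 and 32.9 in the adenine rats. In the sham rats it was 566, 823 and 808, and in the UUO rats it was 22.1, 110 and 49.6. Every diseased kidney lay below every kidney of its control group, and the second rat had the highest value of both disease groups. The mean fell from 724 ± 284 to 48.6 ± 46.1 FPKM (SD, n = 3 each) in the adenine model, or -4.31 as log2 fold change (SE 0.72, limma adjusted p = 0.00237). The fitted change, a difference of mean log values, equals 19.9-fold. After obstruction it fell from 732 ± 144 to 60.7 ± 45.2 FPKM (SD, n = 3 each), or -3.86 as log2 fold change (SE 0.54, limma adjusted p = 0.000725), a fitted change of 14.6-fold. On the log2 scale the ratio of the mean FPKM was -3.90 with adenine and -3.59 with UUO, smaller than the fitted changes. By level, Slc34a1 ranked 36, 121 and 62 among the tested genes of the control rats and 5244, 644 and 2146 in the adenine rats. Its ranks were 88, 64 and 54 in the sham rats and 4200, 750 and 1814 in the UUO rats. Slc34a1 passed both thresholds in all 16 fits of each table, the alternatives included. The size of its fall did not differ detectably between the models, the UUO log2 fold change minus that of adenine being 0.45 (95% confidence interval -1.49 to 2.39, adjusted p = 0.741), an interval that leaves room for differences in either direction.

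Slc34a2, the intestinal and lung type of the family, was upregulated in both models and became the most abundant of the 6 transcripts. Its FPKM was 6.48, 11.7 and 18.8 in the control rats and 104, 117 and 107 in the adenine rats. It was 33.1, 10.6 and 9.45 in the sham rats and 176, 177 and 190 in the UUO rats. The groups did not overlap in either model, and the diseased kidneys were close to each other while the control and sham kidneys were spread over about 3-fold. The mean rose from 12.3 ± 6.16 to 109 ± 6.61 FPKM (SD, n = 3 each) in the adenine model, or 3.27 as log2 fold change (SE 0.35, limma adjusted p = 0.000371). After obstruction it rose from 17.7 ± 13.4 to 181 ± 7.99 FPKM (SD, n = 3 each), or 3.59 as log2 fold change (SE 0.45, limma adjusted p = 0.000456). The fitted rises were 9.63-fold and 12.04-fold, and the log2 ratios of the mean FPKM were 3.15 and 3.35. Both fitted changes passed the DEG thresholds in all 16 fits. In rank, Slc34a2 moved from 7202, 4913 and 3470 in the control rats to 599, 548 and 572 in the adenine rats, and from 2209, 5623 and 6034 in the sham rats to 430, 436 and 366 in the UUO rats. The UUO change minus the adenine change was 0.32 (95% confidence interval -0.91 to 1.55, adjusted p = 0.706). In RefSeq a long noncoding RNA overlaps Slc34a2, and whether reads were assigned by strand is not given in the sources used here, so reads may be shared with it.

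Set against each other within a sample, which removes any scaling of the sample, the log2 ratio of Slc34a2 to Slc34a1 moved from a mean of -5.94 ± 1.20 in control kidneys to 1.66 ± 1.43 in adenine kidneys and from -5.60 ± 1.304 in sham kidneys to 1.87 ± 1.16 in UUO kidneys (SD, n = 3 each). Slc34a2 stood above Slc34a1 in every diseased kidney and below it in every control and sham kidney. The lowest ratio among diseased kidneys was 0.22, in the second adenine rat, and the highest among kidneys without disease was -4.09, in the first sham rat. The exact two-sided permutation test gave p = 0.1 in each model, the smallest value that 3 against 3 samples allow. Since each gene alone moved without overlap and in opposite directions, the ratio could not overlap either. This p was thus fixed by the single-gene results and adds no support to them.

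Of the summed FPKM of the 5 importers, Slc34a1 made up 95.7%, 91.8% and 91.7% in the control rats and 8.14%, 39.7% and 19.0% in the adenine rats. Its share was 88.4%, 95.1% and 93.6% in the sham rats and 9.05%, 32.9% and 17.3% in the UUO rats. The importer transcripts of diseased kidneys were thus no longer mainly Slc34a1 in any rat (exact permutation test, p = 0.1 in each model, n = 3 each, the smallest possible). The mean share of Slc34a2 went from 1.82% to 58.7% in the adenine model and from 2.50% to 63.7% in the UUO model. That of Slc20a1 went from 3.56% to 14.4% and from 2.41% to 12.4%. The sum itself was lower in disease, 193 ± 53.2 against 773 ± 284 FPKM in the adenine model and 289 ± 45.7 against 789 ± 129 FPKM in the UUO model (SD, n = 3 each), without overlap (exact permutation test, p = 0.1 in each). Shares of transcripts are not shares of transport, which was not measured.

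**Figure D2:**
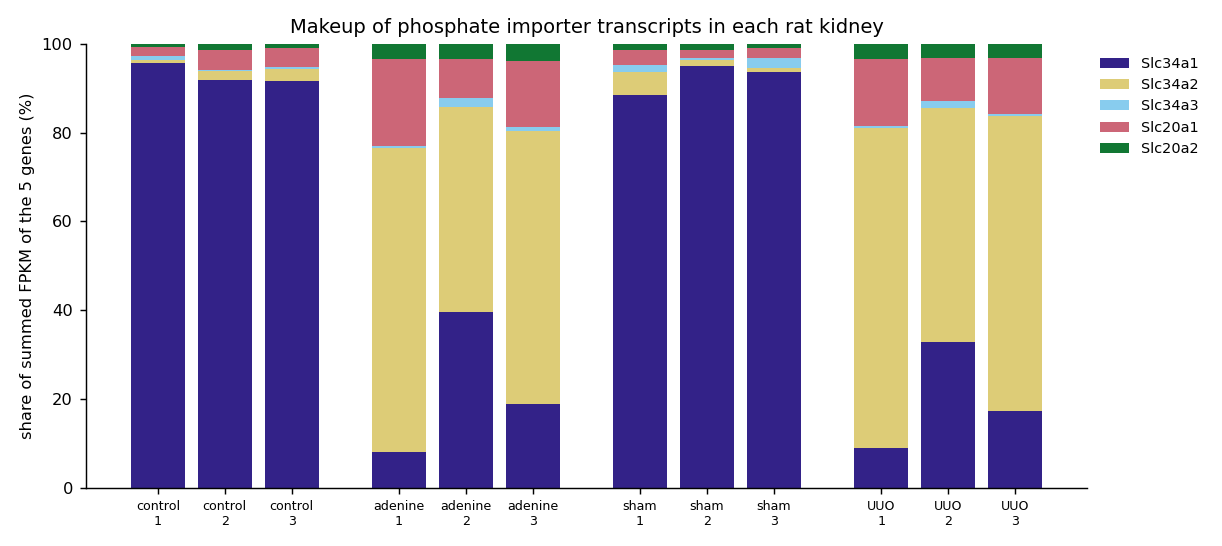
Share of each of the 5 importer genes in their summed FPKM, in percent, with a stacked bar for each rat. Slc34a1 fills 88.4% to 95.7% of the bars of control and sham rats and 8.14% to 39.7% of those of adenine and UUO rats, in which Slc34a2 takes the largest share.

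Slc34a3, the second renal cotransporter of the brush border, varied so widely among rats of 1 group that its changes were poorly determined. Its FPKM was 11.1, 0.298 and 2.57 in the control rats and 0.440, 5.41 and 1.44 in the adenine rats. It was 10.8, 3.78 and 18.4 in the sham rats and 1.21, 5.48 and 1.42 in the UUO rats. The groups overlapped in both models. The log2 fold change was -0.46 (SE 1.32, limma adjusted p = 0.782) in the adenine model, with a 95% confidence interval of -3.62 to 2.70, and it turned to 0.69 without the first control rat and 0.35 without the first adenine rat. After obstruction it was -2.04 (SE 0.73, limma adjusted p = 0.0405), a DEG, but it passed the adjusted p in only 8 of 16 fits and both thresholds in 7. Without the first sham rat it was -1.92 (adjusted p = 0.0969), without the third sham rat -1.54 (0.117), without the first UUO rat -1.66 (0.114) and without the third UUO rat -1.77 (0.115). The UUO change minus the adenine change was -1.58 (95% confidence interval -4.84 to 1.68, adjusted p = 0.462).

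The spread of Slc34a3 within groups was shared by Slc5a2 and in part by podocyte markers, but not by all proximal tubule genes. Slc5a2, the glucose cotransporter SGLT2 of the early proximal tubule, was at 13.7, 0.232 and 2.47 FPKM in the control rats and 7.77, 26.6 and 18.3 in the adenine rats. It was at 19.6, 3.06 and 29.9 in the sham rats and 10.9, 18.9 and 9.83 in the UUO rats. The order of the rats was that of Slc34a3 in the control, adenine and sham groups, and the same rat was highest in the UUO group. The summed FPKM of 4 podocyte markers was 140, 30.5 and 193 in the control rats and 27.9, 64.2 and 32.2 in the adenine rats, also lowest in the second control rat. In the sham and UUO rats it was 126, 146 and 198 and 76.4, 101 and 60.3. This sum was lowest in the first sham rat, unlike Slc34a3, which was lowest in the second. None of the 4 podocyte markers was a DEG in either model, where 5.03% and 4.21% of all tested genes were downregulated DEGs. Among the control rats, the proximal tubule markers Slc22a8 (70.1 ± 75.3 FPKM) and Gatm (301 ± 265 FPKM) also varied widely (SD, n = 3). In the same rats Lrp2 (111 ± 15.4 FPKM) and Cubn (21.1 ± 3.79 FPKM) varied little, and Dao was at 831, 735 and 787 FPKM. The part of such differences between rats in the values of Slc34a3 was not tested. A long noncoding RNA overlaps Slc34a3 in RefSeq, and reads may be shared with it as well.

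Slc20a1, an importer of most cell types, rose in the UUO model by less than 2-fold and was not called in the adenine model. Its FPKM was 20.4, 23.3 and 31.2 in the control rats and 30.0, 22.1 and 25.7 in the adenine rats, which overlapped. It was 20.9, 15.6 and 18.8 in the sham rats and 37.0, 32.1 and 35.9 in the UUO rats, every UUO rat above every sham rat. The log2 fold change was 0.068 (SE 0.19, limma adjusted p = 0.775) in the adenine model. In the UUO model it was 0.93 (SE 0.13, limma adjusted p = 0.000717), beside a median of 0.62 over all tested genes. With median-of-ratios scaling it was 0.33 (adjusted p = 0.0562), the 1 of 16 fits in which it missed the threshold. The UUO change exceeded the adenine change by 0.86 (95% confidence interval 0.37 to 1.36, adjusted p = 0.0152), short of the difference of 1 set for a call, and by 0.56 (adjusted p = 0.120) with median-of-ratios scaling.

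Slc20a2, its close relative, was not called in either model. Its FPKM was 8.48, 7.59 and 6.81 in the control rats and 5.20, 8.61 and 6.83 in the adenine rats. It was 9.19, 12.02 and 8.78 in the sham rats and 8.11, 10.9 and 9.07 in the UUO rats, so that the groups overlapped in both models. The log2 fold changes were -0.17 (SE 0.20, 95% confidence interval -0.66 to 0.32, limma adjusted p = 0.499) and -0.090 (SE 0.17, 95% confidence interval -0.50 to 0.32, limma adjusted p = 0.653). In the UUO model the scaling decided the call, since the log2 fold change was -0.68 with median-of-ratios scaling (adjusted p = 0.0180) and -0.68 with quantile normalization (adjusted p = 0.0139). In RefSeq, Slc20a2 overlaps Smim19 and a pseudogene, so reads may be shared with them.

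Xpr1, the phosphate exporter, rose in the adenine model and was not called in the UUO model. Its FPKM was 2.99, 1.17 and 2.46 in the control rats and 3.84, 5.32 and 5.53 in the adenine rats, without overlap. It was 6.06, 4.25 and 5.59 in the sham rats and 5.74, 5.88 and 6.65 in the UUO rats, which overlapped. With adenine the mean went from 2.21 ± 0.936 to 4.90 ± 0.922 FPKM (SD, n = 3 each), or 1.19 as log2 fold change (SE 0.35, limma adjusted p = 0.0245). The call was lost with median-of-ratios scaling (0.91, adjusted p = 0.0551) and quantile normalization (0.70, adjusted p = 0.0974), without the second adenine rat (1.12, adjusted p = 0.0710) and without the third adenine rat (1.10, adjusted p = 0.0820). In the UUO model the log2 fold change was 0.21 (SE 0.17, limma adjusted p = 0.298), and it was -0.38 with median-of-ratios scaling and -0.51 with quantile normalization, the latter with an adjusted p of 0.0214. The UUO change minus the adenine change was -0.98 (95% confidence interval -1.83 to -0.14, adjusted p = 0.0774). It passed both thresholds of a call without the first control rat (-1.24, adjusted p = 0.0337) and without the second sham rat (-1.13, adjusted p = 0.0481).

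Between the models, 0 of the 6 members differed by both thresholds, an adjusted p under 0.05 and a difference of at least 1 in log2 fold change, where 12.8% of 13486 genes did. By limma standard errors, 2 members (Slc20a1 and Xpr1) had an unadjusted p under 0.05 and 1 (Slc20a1) an adjusted p under 0.05. The intervals of Slc34a1, Slc34a2 and Slc34a3 are too wide to say that both diseases changed them equally.

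**Figure D3:**
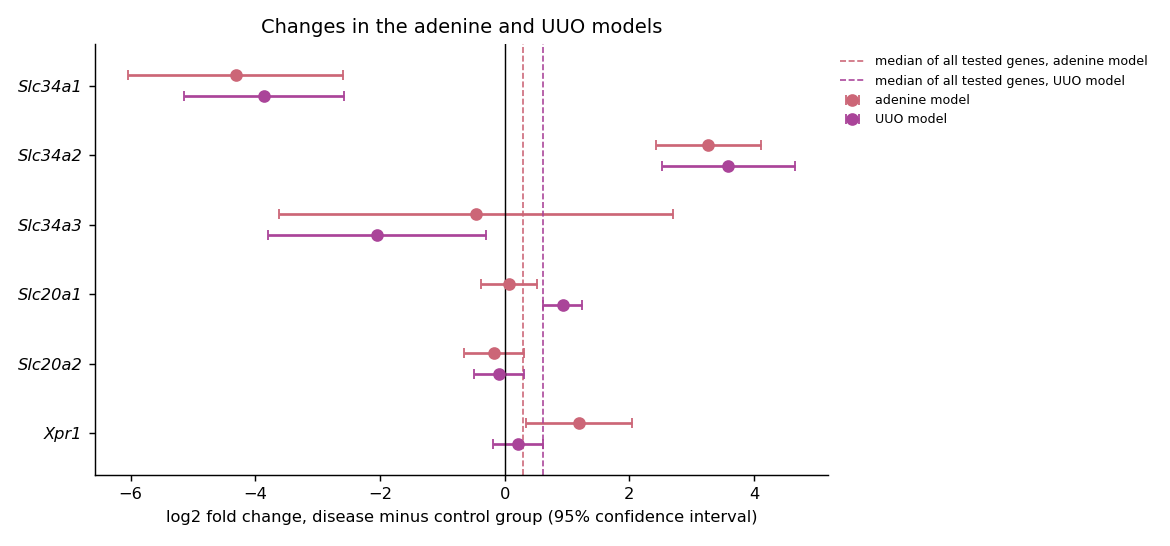
Log2 fold change of each member, disease minus control group, with 95% confidence intervals from limma (3 rats per group); dashed lines are the medians of all tested genes, 0.30 and 0.62. The intervals of Slc34a1 lie wholly below 0 and those of Slc34a2 wholly above the medians in both models, whereas that of Slc34a3 in the adenine model runs from -3.62 to 2.70.

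In level within a sample, Slc34a1 came first in the control and sham groups, with every sample above those of Slc20a1, the next by mean. In the adenine and UUO groups Slc34a2 came first, and its samples did not overlap with those of Slc34a1, the next. Slc34a1 then overlapped with Slc20a1 in both disease groups. Slc34a2, Slc20a2 and Slc34a3 held the middle places of the control and sham groups, each overlapping with the next of them. Xpr1 was the lowest by mean in the control and sham groups and Slc34a3 in the adenine and UUO groups.

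Slc34a1 was next set beside other transcripts of its own nephron segment. Where 5.03% (adenine) and 4.21% (UUO) of all tested genes were downregulated DEGs, 5 and 6 of 10 proximal tubule markers were, and 0 were upregulated. Their summed FPKM was 3506 to 3852 in control kidneys against 131 to 579 in adenine kidneys, and 4148 to 4375 in sham kidneys against 324 to 609 in UUO kidneys. The mean log2 level of the 10 markers fell by 2.08 and 2.37. On the same scale, Slc34a1 exceeded that mean by 2.73, 2.93 and 2.88 in the control rats and by 0.33, 1.06 and 0.44 in the adenine rats. The excess was 1.84, 2.42 and 2.09 in the sham rats and 0.049, 1.23 and 0.58 in the UUO rats. Its excess over the mean dropped by 2.23 with adenine and dropped by 1.496 with UUO, without overlap of the groups (exact permutation test, p = 0.1 in each, n = 3 each, the smallest possible). This compares Slc34a1 with the mean of the list and not with each marker. Miox (-6.18 and -4.89) and Slc3a1 (-5.01 and -4.18) had larger fitted falls than Slc34a1 in both models, as had Slc22a6 (-4.54) in the UUO model, whereas Cubn, Slc5a2 and Slc7a9 were not called in either. With the median of the markers in place of their mean, the excess dropped by 1.67 with adenine and dropped by 1.46 with UUO.

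**Figure D4:**
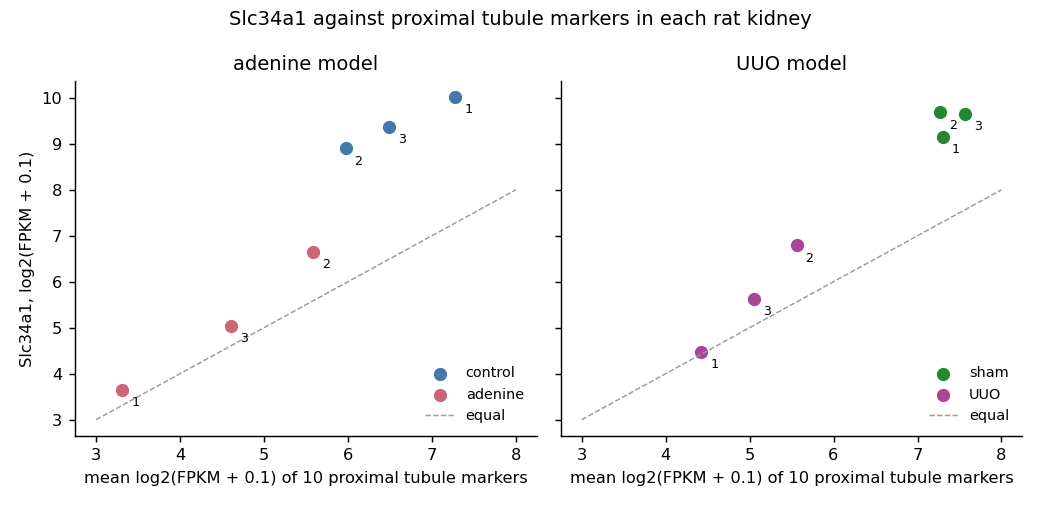
Level of Slc34a1 against the mean level of 10 proximal tubule markers, both as log2(FPKM + 0.1), with a numbered point for each rat and a dashed line of equality. Control and sham rats lie 1.84 to 2.93 above the line and adenine and UUO rats 0.049 to 1.23 above it.

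Markers of other cells moved with the members too. The 6 injured tubule markers summed to 155 to 640 FPKM in control and 10177 to 11011 FPKM in adenine kidneys. In sham kidneys the sum was 271 to 514 FPKM and in UUO kidneys 8107 to 11184 FPKM. Spp1 made up most of it in disease, at 9900 FPKM on average with adenine and 9115 with UUO. Havcr1 (KIM-1) was at 71.5 and 118 FPKM and Lcn2 at 489 and 383. Upregulated DEGs were 3 and 4 of the 6. Of all tested genes, 10.7% (adenine) and 13.2% (UUO) were upregulated DEGs, the shares to set beside this and the following lists. In the adenine model Krt7 (log2 fold change 0.015, limma adjusted p = 0.939) and Sox9 (0.0044, limma adjusted p = 0.992) were not called. Leukocyte markers were upregulated DEGs in 5 of 6 and 5 of 5 cases (summed FPKM 16.2 to 21.0 against 401 to 651, and 17.2 to 25.2 against 191 to 216). Of the stromal and endothelial markers 2 and 4 of 5 were, all of them stromal (57.3 to 71.6 against 412 to 528, and 39.0 to 89.3 against 629 to 1757). The endothelial marker Kdr was not called, at -0.72 (limma adjusted p = 0.192) with adenine and 0.28 (limma adjusted p = 0.453) with UUO, and Pecam1 had no entry. Of 8 distal nephron and collecting duct markers, 3 and 6 were downregulated DEGs (1698 to 2503 against 222 to 458, and 2693 to 3358 against 151 to 307), where 5.03% and 4.21% of all tested genes were. All 5 urothelial markers were upregulated DEGs in the UUO model, where their sum went from 0.646 to 2.67 FPKM in sham kidneys, with Krt5, Upk3a and Upk2 at the lowest listed value in at least 1 of them, to 72.0 to 145 FPKM in UUO kidneys. Among adenine kidneys and their controls, 2 could be tested and 0 were called, with sums of 0.740 to 6.96 FPKM in control and 1.07 to 3.89 FPKM in adenine kidneys and Upk3a at the lowest listed value in at least 1 kidney of each group. The rise of Slc34a2 was present in both models, and the part of any of these cells in the member changes was not tested.

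For each member, the 3 genes most like it over the 12 samples were found by the root mean square difference of log2 levels centred on the control and sham means, among 13485 genes. Nearest to Slc34a1 were Dao (0.30), the D-amino acid oxidase of the proximal tubule, Nat8f3 (0.34) and Pfn3 (0.40). Dao had 784 ± 47.9 FPKM in control and 66.5 ± 63.5 FPKM in adenine kidneys, and 743 ± 41.0 FPKM in sham and 49.7 ± 28.4 FPKM in UUO kidneys (SD, n = 3 each). Pfn3, a profilin, is the next gene to Slc34a1 in RefSeq, 753 bases away on the opposite strand with its end facing that of Slc34a1. Its FPKM was 47.4, 17.4 and 26.9 in the control rats and 0.314, 3.77 and 2.08 in the adenine rats. In the sham rats it was 20.9, 26.4 and 32.1, and in the UUO rats 0.808, 5.74 and 3.35. The order of the rats was that of Slc34a1 in the control, adenine and UUO groups. The part of the shared position in this likeness was not tested.

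Nearest to Slc34a2 were Adamts4 (0.29), a protease that cleaves aggrecan, Tifa (0.35), an adaptor of NF-κB signalling, and Cdkn1a (0.37), the cell cycle inhibitor p21. Cdkn1a rose from 2.65 ± 1.52 to 25.0 ± 2.98 FPKM in the adenine model and from 2.30 ± 0.923 to 31.1 ± 1.45 FPKM in the UUO model (SD, n = 3 each). Nearest to Slc34a3 were Slc6a19 (0.68), the neutral amino acid transporter of the brush border, Kcnj15 (0.72) and LOC100911558 (0.84), all at larger distances than the nearest genes of the other members. Nearest to Xpr1 were Ostm1 (0.14), a subunit of the lysosomal chloride transporter ClC-7, Tshz1 (0.14) and Lman1 (0.17), a cargo receptor of the secretory pathway. Those of Slc20a1 were Zfp219, Zfp821 and Prpf40b (0.096 to 0.11) and those of Slc20a2 were Ccdc51, Phka1 and Meak7 (0.13 to 0.14). Small distances are common among genes that change little, and these genes were picked for likeness, so their values are a description.

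Beyond the members, 36 genes of phosphate handling were listed, of which 35 had an entry and 29 (adenine) and 31 (UUO) were tested. Under adenine, 1 was an upregulated and 8 were downregulated DEGs, where the shares of all tested genes were 10.7% and 5.03%. By the adjusted p alone 7 rose and 11 fell, where 39.6% of all tested genes rose and 19.9% fell. Under UUO, 2 were upregulated and 6 downregulated DEGs, where the shares of all tested genes were 13.2% and 4.21%. By the adjusted p alone 9 rose and 13 fell, where 56.1% of all tested genes rose and 14.4% fell. The listed genes had median log2 fold changes of -0.13 and -0.45, beside 0.30 and 0.62 over all tested genes. Fgf23, Phex, Dmp1 and Ip6k3 did not reach the filter in either table.

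Among 5 scaffold genes that hold Slc34a1 at the membrane, Pdzk1 was a downregulated DEG in both models. It went from 291 ± 38.2 to 56.6 ± 35.4 FPKM in the adenine model and from 393 ± 11.97 to 74.0 ± 26.9 FPKM in the UUO model (SD, n = 3 each), log2 fold changes of -2.60 (SE 0.50, limma adjusted p = 0.00439) and -2.47 (SE 0.25, limma adjusted p = 0.000167). Without the first adenine rat the former was -1.996, just short of a DEG. Slc9a3r1 (NHERF1), the other main scaffold, fell by 1.77 and 1.57 on the log2 scale, past the adjusted p in both models and short of the DEG threshold. The remaining scaffold genes did not fall in both models. Slc9a3r2 was at 0.052 and 0.28 and Shank2 at 0.29 and -0.89 (limma adjusted p = 0.00643 for the latter). Ezr was at 0.089 and 0.56, and its UUO value was a rise past the threshold (limma adjusted p = 0.00397).

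Among 15 hormones, receptors and their enzymes, the parathyroid hormone receptor Pth1r was a downregulated DEG in both models, from 125 ± 30.8 to 18.0 ± 9.46 FPKM (log2 fold change -2.88) and from 136 ± 24.3 to 31.7 ± 6.12 FPKM (-2.10). The UUO change of Pth1r was short of a DEG with the same sum in every sample (-1.88), without the second sham rat (-1.99) and without the first UUO rat (-1.94). Kl (klotho) was a downregulated DEG in the UUO model (-2.92, SE 0.33, limma adjusted p = 0.000306), where it went from 38.8 ± 14.03 to 4.90 ± 1.33 FPKM. With adenine, Kl was at -2.24 (SE 0.81, limma adjusted p = 0.0498), from 14.7 ± 11.2 to 3.10 ± 2.71 FPKM with overlapping groups, and it passed the adjusted p in 7 of 16 fits. It lost the call without the first control rat (-1.64, adjusted p = 0.139), the third control rat (-2.17, 0.115), the first adenine rat (-1.64, 0.133) or the third adenine rat (-2.17, 0.124). Galnt3, which glycosylates FGF23, was a downregulated DEG in the adenine model (-2.30) and was at -0.45 (limma adjusted p = 0.251) in the UUO model. After obstruction Galnt3 was at -1.04 (adjusted p = 0.0258) under median-of-ratios scaling and with quantile normalization at -1.12 (adjusted p = 0.0200), past the adjusted p in both. The difference between the models for Galnt3 was 1.85 (95% confidence interval 0.86 to 2.85, adjusted p = 0.0111). Of the 3 FGF receptors listed, Fgfr3 rose by 1.27 and 1.41 and Fgfr4 fell by 1.42 and 0.63 on the log2 scale, all past the adjusted p. Fgfr1 was at 0.052 (limma adjusted p = 0.739) with adenine and 0.65 (limma adjusted p = 0.00211) with UUO.

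Of the SLC17 transporters first described as phosphate transporters, Slc17a2 (-3.45 and -2.41) and Slc17a3 (-3.34 and -3.45) were downregulated DEGs in both models, except that Slc17a2 was at -1.88 in the UUO model with a pseudocount of 1. Slc17a3 went from 127 ± 7.51 to 14.2 ± 7.91 FPKM and from 129 ± 20.1 to 12.3 ± 4.38 FPKM (SD, n = 3 each). Slc17a4 moved the other way, by 1.66 (limma adjusted p = 0.000968) and 2.12 (limma adjusted p = 0.000477), at low levels of 1.51 to 4.93 FPKM and 1.75 to 7.73 FPKM on average,. It was past the DEG threshold of fold in the UUO model, in 12 of 16 fits, but not with median-of-ratios scaling (1.54), quantile normalization (1.33), a pseudocount of 1 (1.68) or without the second sham rat (1.84). The difference between the models was 0.46 (adjusted p = 0.349).

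Among the genes of pyrophosphate, the inhibitor of calcification that is cleaved to phosphate, Ankh rose and Alpl fell in both models. Ankh, which lets ATP and pyrophosphate leave cells, went from 2.44 ± 0.533 to 39.8 ± 12.05 FPKM in the adenine model and from 3.97 ± 0.386 to 23.7 ± 2.30 FPKM in the UUO model (log2 fold changes 3.96 and 2.55). Its UUO change was 1.96 with median-of-ratios scaling and 1.92 with quantile normalization, short of a DEG. The rise was smaller in the UUO model by 1.41 (adjusted p = 0.00362). Alpl, the alkaline phosphatase that cleaves pyrophosphate, went from 110 ± 18.9 to 11.5 ± 6.31 FPKM and from 134 ± 6.94 to 11.5 ± 3.84 FPKM (-3.39 and -3.59). Abcc6, needed for ATP release, was a downregulated DEG in the adenine model (-3.01) and fell by 1.86 in the UUO model, with a difference of 1.15 (adjusted p = 0.0285). Its UUO change was past the DEG thresholds with median-of-ratios scaling (-2.44), quantile normalization (-2.58) and without the second sham rat (-2.04). Among the kinases of inositol pyrophosphates, the signal that opens Xpr1, and its partner Kidins220, 0 of 5 tested were DEGs in either model, and by the limma adjusted p alone 2 rose with adenine and 4 with UUO, where 39.6% and 56.1% of all tested genes rose.

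**Figure D5:**
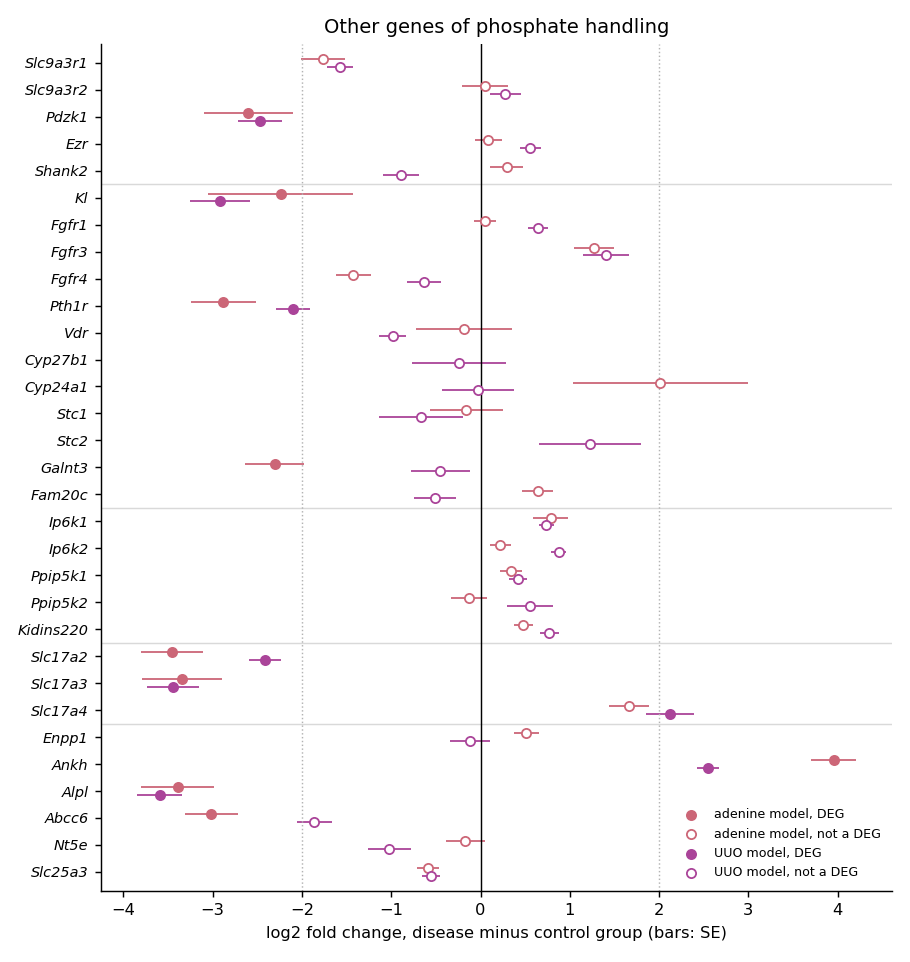
Log2 fold change of the tested phosphate handling genes, disease minus control group, with SE bars; filled points are DEGs and dotted lines mark changes of -2 and 2. Ankh is the farthest to the right, at 3.96 in the adenine model, and Alpl the farthest to the left, at -3.59 in the UUO model.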

How the data were processed

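Poly(A) RNA of 12 rat kidneys was sequenced on stranded libraries. The authors deposited FPKM values per gene in 1 table for the control and adenine groups (22132 entries) and 1 for the sham and UUO groups (32623 entries). Each table held gene symbols and 6 columns of FPKM, and all columns were used. The submitters' processing notes list cutadapt 1.9, HISAT2 2.0.4 and StringTie 1.3.4d; genome build and annotation are not given in the sources used here. The number of reads is unknown, since at most 6.68% of low values shared a common ratio between samples.

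Samples were grouped by their labels. Values were analysed as log2(FPKM + 0.1) for entries with FPKM of at least 0.5 in 3 or more of 6 samples (15029 and 15043 entries), with limma 3.58.1 (lmFit, eBayes with a trend; R 4.3.3), each table alone, and Benjamini-Hochberg adjustment over all tested entries. The p-values of the difference between models used the summed squared standard errors and degrees of freedom. Single values were compared by exact two-sided permutation tests over 20 splits (Python 3.11.15, scipy 1.17.1). The fits were tested on simulated data. Named genes are the members, the phosphate handling genes that were DEGs in either model, and the 3 nearest genes of each member. Other genes were named where a result turned on them. The FGF receptors and the scaffold genes other than Pdzk1 were named after their values had been seen. Members and lists were chosen with earlier results of these data known. Alternatives were 3 other scalings, an unfiltered fit, a filter at FPKM 1, pseudocounts of 0.01 and 1, no trend, a replicate block, and leaving out each sample. Upstream sequences came from RefSeq (GRCr8).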

Additional observations from a re-analysis of the deposited data

How the results depend on the processing

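The DEG calls of Slc34a1 and Slc34a2 held in every fit, with log2 fold changes of -5.08 to -3.58 and 2.87 to 3.63 in the adenine model and -4.44 to -3.28 and 3.26 to 4.16 in the UUO model when each sample was left out. Scaling moved the median of all genes from 0.30 to 0.014 (median-of-ratios) and 0.56 (same sum) in the adenine model, so small changes lost or turned their sign with it. The count of members that differ between the models was 0 as reported, 1 with median-of-ratios scaling and 1 with quantile normalization, and 0 to 1 when each sample was left out, the 1 being Xpr1. In the adenine model, Slc20a1 was at -0.22 with median-of-ratios scaling and -0.0051 with quantile normalization, and Slc20a2 at 0.097 with the same sum. In the UUO model, Slc20a2 was at 0.13 with the same sum, and Xpr1 at -0.38 with median-of-ratios scaling and -0.51 with quantile normalization. The difference of Slc20a2 between the models was -0.22 and -0.17 under these 2 scalings. When each sample was left out, the adenine changes ranged from -1.72 to 0.69 for Slc34a3, -0.066 to 0.24 for Slc20a1 and -0.34 to 0.014 for Slc20a2. The UUO change of Slc20a2 ranged from -0.20 to 0.049. The differences between the models ranged from -0.28 to 1.22 for Slc34a1, -0.045 to 0.90 for Slc34a2 and -0.10 to 0.25 for Slc20a2. The cause was not tested. Replicate numbers do not mark shared animals, and deviations of samples with the same number correlated at -0.12 to -0.049 in the adenine model and 0.050 to 0.11 in the UUO model. Small as these values were, each sham sample correlated best with the UUO sample of its own number, unlike the control samples with those of the adenine group. With the replicate number as a block, Slc34a3 in the UUO model (adjusted p = 0.0905) and Kl in the adenine model (adjusted p = 0.110) lost their calls, member DEGs numbered 2 and 2, and phosphate handling DEGs 8 and 8. Over all single-gene values and settings, judged by direction and, where tested, by the adjusted p without the fold threshold, 584 stayed as reported, 24 lost a call, 8 gained one and 22 changed sign. By the DEG thresholds, which also need the fold, calls held in 12 of 16 fits for Slc17a4, 14 for Ankh and 13 for Pth1r in the UUO model, and Abcc6 was a DEG there in 3. Taking the highest entry of a symbol changed nothing, since each member had 1. With 3 rats per group and unknown read depth, calls that moved with the scaling included those of Slc20a1, Slc20a2, Xpr1 and Slc34a3 among the members and those of Kl, Galnt3, Slc17a4, Ankh, Pth1r and Abcc6 among the other genes.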

Other observations

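Slc34a3 was set beside Slc5a2 in the same sample, a ratio that no scaling of the sample can change and that was chosen after the spread of both genes had been seen. The log2 ratio of Slc34a3 to Slc5a2 was -0.30, 0.36 and 0.057 in the control rats and -4.14, -2.30 and -3.67 in the adenine rats. It was -0.87, 0.31 and -0.71 in the sham rats and -3.16, -1.78 and -2.79 in the UUO rats. The groups did not overlap in either model, and the ratio was lower in disease by means of 0.038 against -3.37 and of -0.42 against -2.58 (exact permutation test, p = 0.1 in each, n = 3 each, the smallest possible). The ratio does not show which gene moved. In the adenine model Slc5a2 was at 2.78 and Slc34a3 at -0.46 on the log2 scale, neither past the adjusted p. Most of the lower ratio there came from the higher values of Slc5a2, so it is no evidence of a fall of Slc34a3. In the UUO model Slc5a2 was at 0.047 and Slc34a3 at -2.04, so there the ratio mostly followed Slc34a3.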
